A study of Homo sapiens with 6 samples.

Results

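H2087-LCC cells exposed to TGFβ for 3 days were compared by RNA-seq with cells exposed for 3 days to SB505124 (SB), which blocks the kinase of the type I receptor for TGFβ. These groups hold 4 of the 6 libraries of the study, 2 per group, and were taken because they were harvested on the same day, so that time in culture was matched. H2087-LCC is a latency competent cancer cell population that was selected in mice from a human lung adenocarcinoma (LUAD) cell line. The SB group received 2.5 µM SB505124 and the TGFβ group 100 pM TGFβ1, in medium with 2% serum. The comparison therefore sets added ligand against a blocked receptor, and an untreated culture was not analysed here. The remaining 2 libraries came from cells kept for 7 days with TGFβ, and an SB library of that time was not analysed here. They entered the estimate of the spread and are quoted only beside a 3-day value. In the study's terms both libraries of a group are technical replicates, so the errors and p-values cover the spread between these libraries and may not cover separate cultures. Values are library-size normalised counts, which the authors rounded to whole numbers, for 21293 genes. A mean of 10 or more over the 6 libraries was required, which left 14395 genes to be tested on the log2(normalised count + 1) scale, on which every fold change below is given.

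TGFβ binds the type II receptor, which recruits and phosphorylates the type I receptor. The type I receptor in turn phosphorylates SMAD2 and SMAD3, which enter the nucleus with SMAD4 and act with other transcription factors on target genes, including those of the inhibitors that limit the signal. In epithelial and carcinoma cells this response is known for an epithelial-to-mesenchymal transition (EMT), in which cell junctions and keratins are lost, matrix and contractile proteins are gained, and division often slows.

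The normalised counts summed to between 34306283 and 36340734 per library, and the libraries of a pair differed by a median of 0.138 on the log2 scale with SB and 0.114 with TGFβ, over 11389 genes whose mean reached 100. The SB pair stood apart in a limited set of genes: 88 of the 11389 genes differed at least 2-fold between its libraries, against 3 in the TGFβ pair. DMBT1, a secreted mucosal protein, was at 46 and 1122 in SB libraries 1 and 2, IFI27, an interferon-induced gene, at 40 and 430, and SFTPB, the surfactant protein B gene, at 1104 and 8273. Of the 88 genes, 59 passed the test between the groups, where 29% of all 14395 genes tested did. In all 40 of those that fell with TGFβ, SB library 1 held the lower value. Of the 19 that rose with TGFβ, SB library 1 held the higher value in 7. Which SB library was lower among those of the 88 genes that did not pass was not counted. The part of the 88 genes in the results was not tested. The main values that rest on these genes are given below with either SB library left out. Counts of cell type markers called stand beside 14.9% higher and 14% lower over all 14395 genes tested. Of 10 LUAD epithelial markers tested, 7 fell and 1 rose, with a median of -1.29. The summed counts of the list lay between 106406 and 125111 with SB and between 99082 and 111379 with TGFβ. Markers of the label were thus present in every library, led by KRT8 at 33960 and 39833 with SB and 33341 and 39167 with TGFβ, with EPCAM at 10180 and 9106 with SB and 6610 and 5994 with TGFβ, but most were lower with TGFβ, and NAPSA and SFTPB were low there. Of the 7 haematopoietic markers in the table, CD68 alone reached the minimum for testing. COL3A1, DCN and LUM, defining fibroblast genes, were at 0 in all 4 libraries. Of the 4 fibroblast markers tested, 2 rose and 0 fell, with a median of 1.2. PDGFRB rose by 1.84. FAP rose by 2.52, and by 3.68 and 1.36 without SB libraries 1 and 2. FAP did not pass limma's test with low genes kept (adjusted p = 0.0926) or without the trend (adjusted p = 0.0646). The 9 fibroblast markers together summed to 237 and 277 with SB and 364 and 448 with TGFβ. Of the 4 endothelial markers tested, 3 were higher and 1 lower. The 7 listed summed to between 258 and 402 with SB and 433 and 435 with TGFβ. The rise of PECAM1, by 0.72, did not pass the test with low genes kept, with equal library totals, on the 4 libraries alone or with a replicate block. In bulk RNA, fewer cells of a type and less RNA per cell cannot be told apart.

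**Figure D1:**
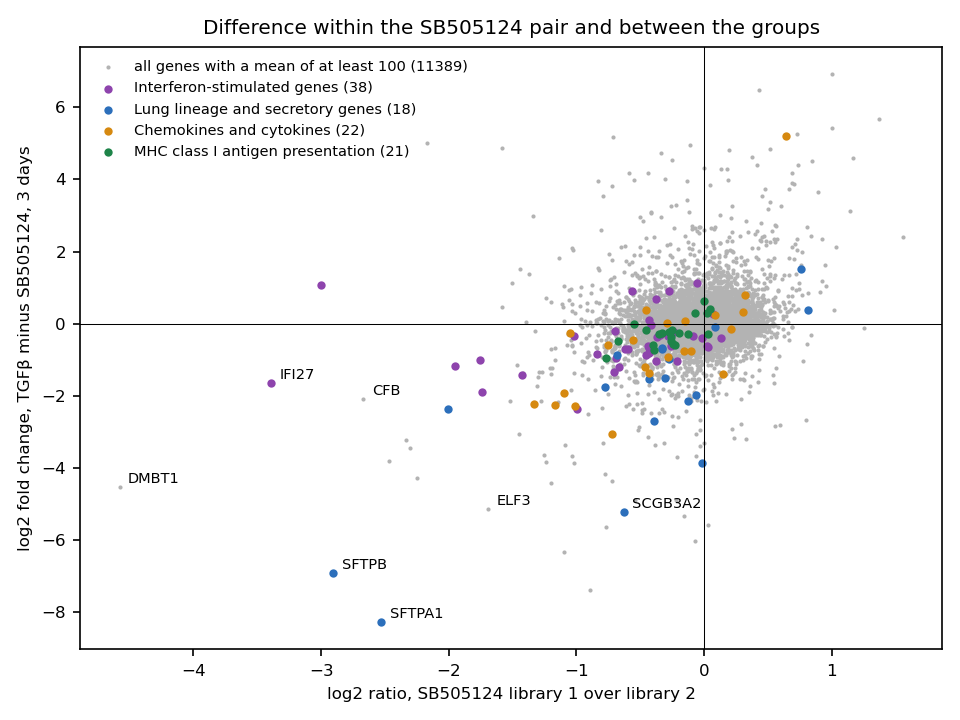
Difference within the SB pair (horizontal axis, log2 ratio of library 1 over library 2) against the fold change between the groups (vertical axis, log2, TGFβ minus SB at 3 days) for 11389 genes whose mean reached 100, where colours mark members of 4 gene lists. SFTPB, SFTPA1, DMBT1, CFB and IFI27 lie far to the left, lower in SB library 1 than in SB library 2, while most genes lie near 0 on the horizontal axis.

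After 3 days of TGFβ, 4170 of the 14395 genes (29%) differed from SB at a Benjamini-Hochberg adjusted p under 0.05 in limma. Of these, 2149 genes (14.9%) were higher and 2021 (14%) were lower. Changes of at least 2-fold were found for 675 higher genes (4.69%) and 592 lower genes (4.11%). The values of the groups did not overlap in any of the 2149 higher genes and in 2020 of the 2021 lower genes, while over all 14395 genes both TGFβ libraries lay above both SB libraries in 30.3% and below them in 32.9%. Most changes were small: the 5th and 95th percentiles of the fold change over all genes were -0.93 and 1.0, with a median of -0.02.

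**Figure D2:**
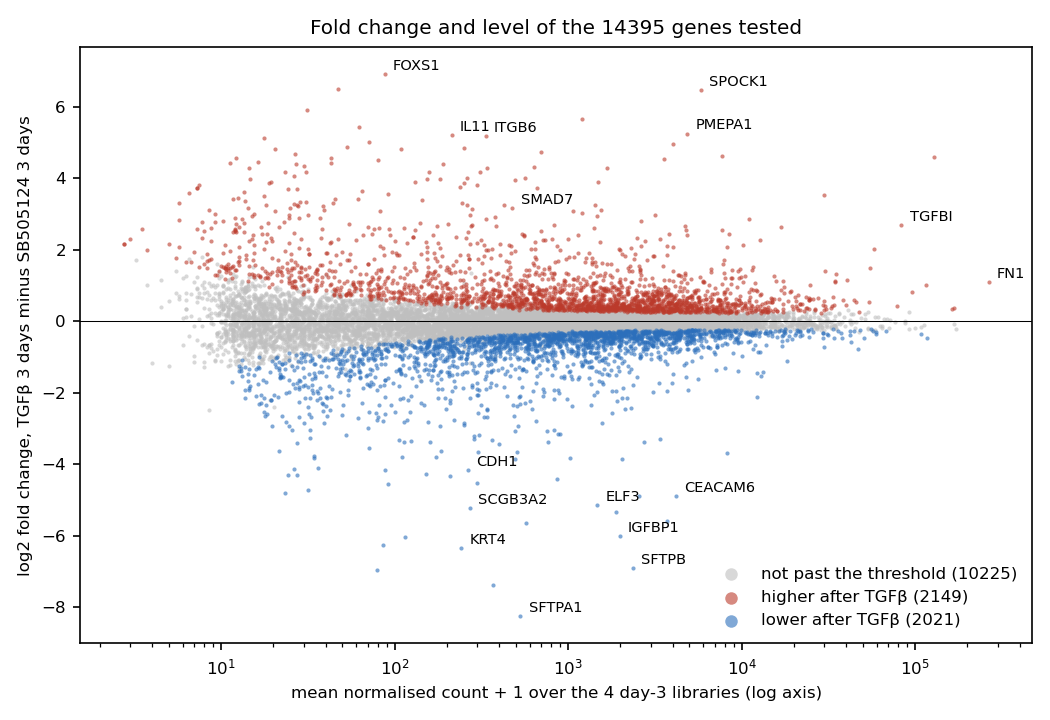
Fold change (vertical axis, log2, TGFβ minus SB at 3 days) against the mean normalised count plus 1 of the 4 day-3 libraries (log axis) for the 14395 genes tested, with 2149 higher genes in red and 2021 lower genes in blue. TGFBI and FN1 combine a rise with very high counts, and the surfactant gene SFTPA1 has the largest fall.

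The ligands and their binding proteins did not move together. TGFB1 was at 431 and 481 with SB and 1381 and 1775 with TGFβ (1.78 ± 0.14, adjusted p = 1.75e-06), where the bracket gives, here and below, the log2 fold change ± its standard error (n = 2 per group) and limma's adjusted p. TGFB2 was at 872 and 834 with SB and 261 and 211 with TGFβ (-1.86 ± 0.17, adjusted p = 7.43e-06). LTBP2, a microfibril-associated relative of the latent TGFβ binding proteins, was at 242 and 261 with SB and 7042 and 8575 with TGFβ (4.94 ± 0.11, adjusted p = 7.00e-11). NRROS, which presents latent TGFβ on cell surfaces, was at 1113 and 1197 with SB and 423 and 580 with TGFβ (-1.22 ± 0.15, adjusted p = 9.37e-05). TGFB1 and LTBP2 were thus higher with TGFβ, and TGFB2 and NRROS lower. Of the 8 ligand and binding protein genes tested, 4 rose and 2 fell. Counts of list members, here and below, stand beside the 14.9% higher and 14% lower of all genes tested.

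Among 10 receptors, 4 rose and 1 fell, ACVR1C, an activin and Nodal receptor, whose call (adjusted p = 0.047) was lost with any of the 4 libraries left out. TGFBR2, the type II receptor, was at 4551 and 4096 with SB and 8795 and 8648 with TGFβ (1.01 ± 0.08, adjusted p = 2.92e-06). TGFBR1, the type I receptor, was at 2077 and 1948 with SB and 3763 and 3338 with TGFβ (0.82 ± 0.09, adjusted p = 3.68e-05). Of 6 SMAD genes, SMAD3 alone passed the test, at 11488 and 10618 with SB and 8171 and 7518 with TGFβ (-0.49 ± 0.08, adjusted p = 0.000963). SMAD2 was at 1600 and 1352 with SB and 1900 and 1738 with TGFβ and SMAD4 at 1421 and 1391 with SB and 1507 and 1392 with TGFβ, with adjusted p = 0.0602 and 0.779, and 1 SMAD gene rose without SB library 1.

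Of 13 inhibitors of the pathway, 7 rose and 1 fell. SMAD7, the inhibitory SMAD that recruits ubiquitin ligases to the receptor, was at 112 and 79 with SB and 916 and 799 with TGFβ (3.17 ± 0.17, adjusted p = 8.54e-08). PMEPA1, a membrane protein that sequesters receptor-regulated SMADs, was at 320 and 193 with SB and 9312 and 9610 with TGFβ (5.24 ± 0.17, adjusted p = 1.93e-09). SKIL, a corepressor that binds SMADs, was at 1452 and 1608 with SB and 8713 and 7657 with TGFβ (2.42 ± 0.09, adjusted p = 6.11e-09). All 3 genes were several-fold higher in both TGFβ libraries than in either SB library. SMURF1, a ubiquitin ligase for SMADs, rose by 1.02. SMAD6, the inhibitory SMAD linked mainly to the BMP branch, was at 2 and 9 with SB and 39 and 45 with TGFβ (2.97 ± 0.45, adjusted p = 0.000388). TGIF2, a homeodomain corepressor, was the member that fell, at 527 and 650 with SB and 383 and 398 with TGFβ (adjusted p = 0.00878), and its call was lost without SB library 2 (adjusted p = 0.0586) and without TGFβ library 1 (adjusted p = 0.0509). BAMBI, a pseudoreceptor, did not pass the test, at 167 and 232 with SB and 170 and 179 with TGFβ.

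Of 20 genes of the related BMP and activin branch, 8 rose and 2 fell, with 4 lower without SB library 1. FSTL3, which binds activin, was at 172 and 152 with SB and 2942 and 3427 with TGFβ (4.29 ± 0.13, adjusted p = 1.67e-09). BMP2, a BMP ligand, was at 41 and 48 with SB and 428 and 460 with TGFβ (3.29 ± 0.15, adjusted p = 2.38e-08). BMP4, another ligand, was at 238 and 246 with SB and 83 and 83 with TGFβ (-1.53 ± 0.19, adjusted p = 7.49e-05). The ID genes, which encode inhibitors of basic helix-loop-helix factors, went different ways: ID2 was at 65 and 38 with SB and 149 and 141 with TGFβ, a rise of 1.52. ID3 was at 409 and 352 with SB and 131 and 150 with TGFβ, with a fold change of -1.43. ID1 was at 472 and 517 with SB and 496 and 577 with TGFβ (adjusted p = 0.564).

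Among genes whose mean reached 100, the largest rises were led by FOXS1, a forkhead factor, which was at 1 and 0 with SB and 136 and 210 with TGFβ. SPOCK1, a matricellular proteoglycan, was at 150 and 111 with SB and 11884 and 11075 with TGFβ (6.46 ± 0.12, adjusted p = 5.66e-11). KLHDC8A, a kelch domain protein, was at 74 and 28 with SB and 2344 and 2380 with TGFβ (5.66 ± 0.30, adjusted p = 8.27e-08), with fold changes of 6.35 and 4.98 without SB libraries 1 and 2. IL11, a cytokine of the interleukin 6 family, was at 13 and 8 with SB and 385 and 443 with TGFβ (5.2 ± 0.22, adjusted p = 1.07e-08). In each of these genes the TGFβ libraries held at least 10 times the count of either SB library. MYOM3, a sarcomeric M-band protein, was at 1 and 8 with SB and 128 and 144 with TGFβ. SHANK3, a scaffold protein, was at 1 and 5 with SB and 88 and 114 with TGFβ. LBH, a transcriptional cofactor, was at 7 and 6 with SB and 224 and 195 with TGFβ. PCDH1, a protocadherin, was at 44 and 56 with SB and 1221 and 1475 with TGFβ. The SB values of FOXS1, MYOM3, SHANK3 and LBH were below 10, which makes the size of their fold changes depend on the pseudocount. ANPEP, the membrane aminopeptidase CD13, was at 684 and 526 with SB and 13424 and 16004 with TGFβ (4.61 ± 0.13, adjusted p = 7.42e-10).

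EMT transcription factors went in both directions. Of 14 tested, 6 rose and 3 fell, with a list median of 0.00. SNAI1 was at 51 and 68 with SB and 196 and 247 with TGFβ (1.88 ± 0.21, adjusted p = 3.60e-05). SNAI2 was at 1640 and 1125 with SB and 4996 and 4621 with TGFβ (1.82 ± 0.14, adjusted p = 1.86e-06). Both encode zinc-finger repressors of epithelial genes. ZEB1, a further repressor of this kind, was at 2702 and 2567 with SB and 5073 and 4770 with TGFβ (0.90 ± 0.08, adjusted p = 8.89e-06). HMGA2, a chromatin protein that acts with SMADs, was at 12971 and 12780 with SB and 22424 and 22138 with TGFβ (0.79 ± 0.08, adjusted p = 2.03e-05). ZEB1 and HMGA2 were already abundant with SB, so their rises of under 2-fold come on top of a high level. TWIST2 was at 42 and 34 with SB and 70 and 69 with TGFβ (adjusted p = 0.0206), and its call was lost without SB library 2 (adjusted p = 0.0709), TGFβ library 1 (adjusted p = 0.105) or TGFβ library 2 (adjusted p = 0.083). FOXC1, a forkhead factor, was at 1024 and 760 with SB and 489 and 409 with TGFβ (-0.98 ± 0.16, adjusted p = 0.00058). SOX9 was at 1835 and 2305 with SB and 1233 and 1365 with TGFβ (-0.66 ± 0.12, adjusted p = 0.00118). Both genes were among the 3 of this list that fell.

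Epithelial transcription and splicing factors formed a separate list. Of its 14 tested members, 9 fell and KLF4 rose, with a median of -0.96. The rise of KLF4, a fold change of 0.30 (adjusted p = 0.0263), was lost without SB library 2, TGFβ library 1 or TGFβ library 2 (adjusted p = 0.0936, 0.104 and 0.12). ELF3, an epithelium-specific ETS factor, was at 1359 and 4388 with SB and 66 and 71 with TGFβ (-5.14 ± 0.38, adjusted p = 1.18e-06). Its SB libraries differed 3-fold, and the fold change was -5.98 without SB library 1 and -4.29 without SB library 2. GRHL3, a grainyhead factor of epithelial barriers, was at 99 and 112 with SB and 13 and 18 with TGFβ (-2.7 ± 0.31, adjusted p = 4.85e-05). FOXA2, a pioneer factor of foregut epithelium, was at 490 and 642 with SB and 75 and 99 with TGFβ (-2.69 ± 0.20, adjusted p = 1.41e-06). TFAP2A, an AP-2 factor, was at 64 and 103 with SB and 11 and 21 with TGFβ (-2.34 ± 0.38, adjusted p = 0.00069). ESRP2, which directs epithelial splicing, was at 797 and 832 with SB and 386 and 447 with TGFβ (-0.97 ± 0.15, adjusted p = 0.000437), while its paralogue ESRP1 was at 8 and 6 with SB and 2 and 3 with TGFβ and OVOL2 at 9 and 9 with SB and 0 and 0 with TGFβ, too low to be tested. Of 9 mesenchymal splicing regulators, MBNL2 rose, CELF2 fell and the others, QKI and RBFOX2 among them, did not pass the test. Without SB library 2, 2 of the 9 were higher.

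SNAI and ZEB proteins are known to bind the E-box CACCTG. Windows from 250 bases before to 50 after the start of each gene were searched for this motif in RefSeq promoters (GRCh38.p14), on both strands. Windows were at hand for 27 of the 48 members of the epithelial transcription factor, adherens junction, desmosome, tight junction, surface and keratin lists that fell. Of these 27 genes, 14 (51.9%) held the motif in at least 1 window. It was found for 138 of 382 genes (36.1%) that fell at least 2-fold, for 135 of 477 (28.3%) that rose at least 2-fold, and for 2517 of 10355 (24.3%) of all tested genes. The shares are a description of these letters and no binding was measured. The 27 genes were picked because they fell, and the share among epithelial list members that did not fall was not taken. Whether SNAI or ZEB proteins had a part in the falls was not tested. The mean number of windows per gene lay between 1.46 and 1.52 in the 4 sets. The 150 bases before the start are shown for 3 genes that fell and for ITGB6, which rose and holds the motif too, with the E-box in capitals:
CEACAM5 (chr19:41708476-41708625, plus strand): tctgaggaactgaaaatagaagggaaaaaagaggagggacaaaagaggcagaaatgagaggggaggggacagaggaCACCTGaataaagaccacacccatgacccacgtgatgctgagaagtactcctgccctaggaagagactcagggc
ELF3 (chr1:202010437-202010586, plus strand): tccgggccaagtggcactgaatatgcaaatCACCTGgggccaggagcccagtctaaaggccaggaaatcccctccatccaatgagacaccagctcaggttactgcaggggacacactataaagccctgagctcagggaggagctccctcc
MUC1 (chr1:155192916-155193065, minus strand): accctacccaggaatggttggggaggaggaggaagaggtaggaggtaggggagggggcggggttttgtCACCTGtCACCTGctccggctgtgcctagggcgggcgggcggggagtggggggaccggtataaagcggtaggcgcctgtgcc
ITGB6 (chr2:160200273-160200422, minus strand): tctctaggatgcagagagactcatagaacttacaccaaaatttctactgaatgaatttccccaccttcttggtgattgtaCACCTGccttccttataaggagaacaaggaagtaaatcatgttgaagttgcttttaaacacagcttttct
The motif begins 74 bases before the start in CEACAM5, 120 in ELF3, 82 and 75 in MUC1 and 70 in ITGB6. Over the 35116 windows of the table, 20.6% hold it. The AP-1 motif TGACTCA was found for 47 of the 477 genes that rose at least 2-fold (9.85%), 28 of the 382 that fell (7.33%) and 539 of all 10355 (5.21%), and for 0 of the 27 epithelial genes that fell. The SMAD-type motif CAGACA was found for 119 of the 477 (24.9%), 75 of the 382 (19.6%) and 1820 of all (17.6%), and for 7 of the 27 epithelial genes (25.9%), a share close to that of the genes that rose.

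Cadherin and adherens junction genes went in both directions, with CDH1 among the falls. CDH1, which encodes E-cadherin and lies on chromosome 16 (bases 68771195 to 68869440, GRCh37), was at 371 and 635 with SB and 28 and 24 with TGFβ (-4.18 ± 0.29, adjusted p = 7.11e-07). The gene of N-cadherin, CDH2, which replaces E-cadherin in many EMTs, was at 0 or 1 in all 4 libraries. CDH11, a mesenchymal cadherin, was at 12245 and 15425 with SB and 5318 and 5158 with TGFβ (-1.39 ± 0.10, adjusted p = 1.32e-06). CDH3, P-cadherin, was at 1670 and 1954 with SB and 786 and 858 with TGFβ (-1.14 ± 0.11, adjusted p = 1.31e-05). CDH4, the retinal cadherin and the cadherin of this list that rose, was at 9 and 7 with SB and 29 and 30 with TGFβ, so the cadherins with more than 50 counts with SB that passed the test were all lower. JUP, the plakoglobin gene, was in contrast at 1271 and 1803 with SB and 3186 and 4297 with TGFβ (1.29 ± 0.18, adjusted p = 0.000174). PVRL4, which encodes nectin 4, was at 1 and 2 with SB and 45 and 42 with TGFβ, so that it was near 0 with SB. Of the 13 cadherin and adherens junction genes tested, 5 rose and 4 fell. Of the 10 desmosome genes tested, PKP1, a plakophilin, rose and 3 fell, among them PPL, the periplakin gene, at 639 and 926 with SB and 207 and 317 with TGFβ (-1.58 ± 0.21, adjusted p = 0.000145). The number of lower desmosome genes was 1 without SB library 1 and 1 without TGFβ library 1, and 2 were higher without SB library 2 and without TGFβ library 1. DSP, desmoplakin, was at 1728 and 2155 with SB and 2403 and 2273 with TGFβ (adjusted p = 0.0839).

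Tight junction and apical polarity genes fell in 12 of 24 cases and rose in 2. TJP3, a scaffold of tight junctions, was at 21 and 70 with SB and 1 and 1 with TGFβ (-4.3 ± 0.57, adjusted p = 0.000135), with -5.15 and -3.46 without SB libraries 1 and 2. CLDN10, a claudin, was at 1314 and 1516 with SB and 358 and 341 with TGFβ (-2.01 ± 0.13, adjusted p = 3.11e-07). CLDN3, a further claudin, was at 54 and 50 with SB and 9 and 13 with TGFβ (-2.16 ± 0.37, adjusted p = 0.000931). TJP1, the related scaffold, went the other way, at 10612 and 11290 with SB and 15226 and 14005 with TGFβ (0.42 ± 0.08, adjusted p = 0.00223). The number of lower tight junction members was 7 without SB library 2 and 7 without TGFβ library 1, and 1 was higher without SB library 1 or either TGFβ library. Of 22 epithelial surface genes, 13 fell and 3 rose, with a median of -0.91, and 1 rose without SB library 2 or either TGFβ library. CEACAM6, an adhesion molecule of epithelial membranes, was at 6573 and 9563 with SB and 270 and 262 with TGFβ (-4.89 ± 0.17, adjusted p = 2.90e-09), and its neighbour CEACAM5 at 59 and 254 with SB and 0 and 0 with TGFβ. TMPRSS2, a membrane serine protease, was at 203 and 486 with SB and 30 and 20 with TGFβ (-3.63 ± 0.35, adjusted p = 1.22e-05), with -4.26 and -3.0 without SB libraries 1 and 2. AGR2, a secretory-pathway disulfide isomerase, was at 2155 and 2516 with SB and 631 and 549 with TGFβ (-1.98 ± 0.15, adjusted p = 1.30e-06). MUC1, a membrane mucin, was at 448 and 1289 with SB and 169 and 177 with TGFβ (-2.13 ± 0.34, adjusted p = 0.00060), with fold changes of -2.89 without SB library 1 and -1.37 without SB library 2. EPCAM fell by less, with a fold change of -0.61 (adjusted p = 0.000411).

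Keratins split by gene. Of the general simple-epithelium pair, KRT18 was at a fold change of -0.29 (adjusted p = 0.0215), and did not pass the test without SB library 2 (adjusted p = 0.0715) or TGFβ library 1 (adjusted p = 0.162). KRT8 was at -0.03 (adjusted p = 0.889). KRT75, a keratin of hair follicle and nail, was at 7309 and 7175 with SB and 147 and 153 with TGFβ (-5.58 ± 0.20, adjusted p = 3.85e-09). KRT4, of stratified epithelium, was at 302 and 648 with SB and 4 and 5 with TGFβ (-6.34 ± 0.59, adjusted p = 8.15e-06), with -6.89 and -5.79 without SB libraries 1 and 2. KRT7 rose, at 5860 and 6183 with SB and 15440 and 18905 with TGFβ (1.5 ± 0.12, adjusted p = 1.85e-06), and so did KRT81, at 48 and 41 with SB and 108 and 132 with TGFβ (1.41 ± 0.23, adjusted p = 0.000667). KRT14, a basal keratin, was at 0 and 0 with SB and 15 and 10 with TGFβ. Of the 18 keratins tested, 5 rose and 7 fell. KRT16P2, a keratin pseudogene with near-identical copies and hence uncertain counts, was at 516 and 959 with SB and 5 and 2 with TGFβ. Among other intermediate filaments, VIM, vimentin, was at 79130 and 60300 with SB and 124252 and 120316 with TGFβ (0.82 ± 0.11, adjusted p = 0.000169). NES, nestin, was at 1306 and 1709 with SB and 3108 and 3245 with TGFβ (1.09 ± 0.12, adjusted p = 2.80e-05), while the nuclear lamin gene LMNB1 was at 12191 and 12295 with SB and 9967 and 9298 with TGFβ (-0.35 ± 0.08, adjusted p = 0.00618). The call of LMNB1 was lost without TGFβ library 2 (adjusted p = 0.0654), and without SB library 2 or TGFβ library 1 the list had 1 lower member in place of 2.

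**Figure D3:**
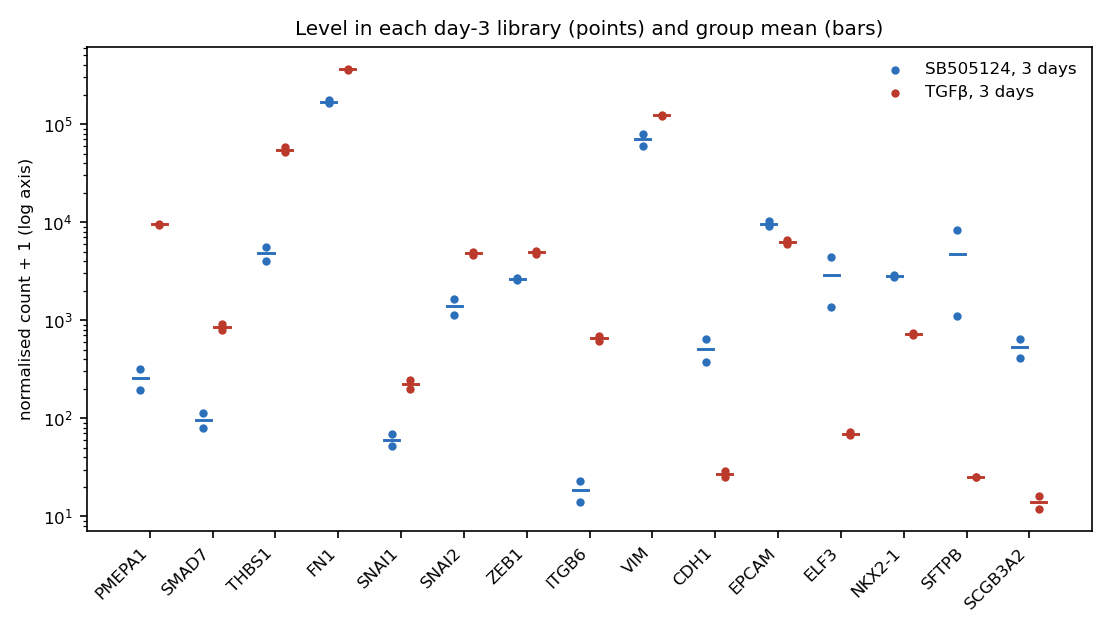
Normalised count plus 1 (log axis) of 15 genes in each of the 2 SB libraries (blue points) and 2 TGFβ libraries (red points), with bars at the group means. All 15 genes were picked among those past the threshold, so the lack of overlap between their groups adds nothing to the test. Over all 14395 genes tested, both TGFβ libraries lay above both SB libraries in 30.3% and below them in 32.9%. ELF3 and SFTPB show the widest SB pairs.

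Lung lineage and secretory genes had the lowest median of the lists, with 17 of 20 tested members lower, 1 higher and a median of -1.86, a list chosen with these samples known. NKX2-1, the lung and thyroid lineage factor, was at 2784 and 2908 with SB and 712 and 748 with TGFβ (-1.96 ± 0.10, adjusted p = 4.48e-08). SOX2, a factor of foregut progenitors, was at 1552 and 2658 with SB and 626 and 569 with TGFβ (-1.77 ± 0.19, adjusted p = 3.15e-05). HOPX, a homeodomain protein of alveolar cells, was at 3819 and 3854 with SB and 271 and 255 with TGFβ (-3.86 ± 0.14, adjusted p = 2.90e-09). SB and TGFβ libraries were far apart for these 3 genes and each TGFβ pair agreed closely. SCGB3A2, a secretoglobin of airway cells, was at 414 and 642 with SB and 15 and 11 with TGFβ (-5.22 ± 0.36, adjusted p = 7.62e-07). NAPSA, the napsin A aspartic protease, was at 99 and 234 with SB and 8 and 7 with TGFβ (-4.18 ± 0.43, adjusted p = 2.08e-05), with -4.79 and -3.56 without SB libraries 1 and 2. LPCAT1, which makes surfactant phospholipid, was at 19014 and 20746 with SB and 4547 and 4519 with TGFβ (-2.13 ± 0.08, adjusted p = 5.43e-09).

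The surfactant protein genes were below 25 counts in each TGFβ library and differed widely within the SB pair. SFTPB was at 1104 and 8273 with SB and 24 and 24 with TGFβ (-6.92 ± 0.63, adjusted p = 7.02e-06); its fold change was -8.37 without SB library 1 and -5.47 without SB library 2. SFTPA1 was at 311 and 1799 with SB and 0 and 5 with TGFβ, with fold changes of -9.52 and -6.99, and SFTPA2 at 41 and 410 with SB and 0 and 3 with TGFβ, with -7.68 and -4.39. SFTPA1 and SFTPA2 are near-identical copies. The study assigned uniquely mapped reads to genes, so reads that fit both copies may be missing from these counts. LAMP3, a marker of lamellar bodies, was at 216 and 872 with SB and 97 and 73 with TGFβ, with fold changes of -3.36 without SB library 1 and -1.35 without SB library 2. LAMP3 did not pass the test without the trend in limma (adjusted p = 0.0536) or with genes of low values kept (adjusted p = 0.0729). The median of the list was -2.07 without SB library 1 and -1.37 without SB library 2. GATA6, an endoderm factor, was at 304 and 286 with SB and 302 and 249 with TGFβ (adjusted p = 0.664), and ID2 was the member that rose.

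The largest falls outside these lists were those of IGFBP1, an insulin-like growth factor binding protein, at 3797 and 3993 with SB and 59 and 59 with TGFβ (-6.02 ± 0.20, adjusted p = 2.53e-09). CACNA1E, a voltage-gated calcium channel, was at 831 and 1414 with SB and 18 and 24 with TGFβ (-5.64 ± 0.27, adjusted p = 3.13e-08). SLCO2A1, the prostaglandin transporter, was at 3490 and 3893 with SB and 92 and 89 with TGFβ (-5.33 ± 0.17, adjusted p = 1.85e-09). VSIG1, an immunoglobulin-family junction protein, was at 4556 and 5305 with SB and 168 and 161 with TGFβ (-4.89 ± 0.13, adjusted p = 4.76e-10). IGFBP1, SLCO2A1 and VSIG1 had closely matching SB libraries. CEMIP, which takes part in hyaluronan breakdown, was at 1003 and 2306 with SB and 57 and 87 with TGFβ (-4.41 ± 0.32, adjusted p = 9.45e-07), with -5.01 and -3.81 without SB libraries 1 and 2. C16orf89, a secreted protein of thyroid and lung, was at 298 and 493 with SB and 16 and 20 with TGFβ (-4.35 ± 0.30, adjusted p = 6.58e-07). DMBT1 was at 46 and 1122 with SB and 9 and 9 with TGFβ (-4.52 ± 0.99, adjusted p = 0.00497), with a fold change of -6.81 without SB library 1 and -2.23 without SB library 2. DMBT1 did not pass the test without the trend in limma (adjusted p = 0.0751) or with genes of low values kept (adjusted p = 0.0979).

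Of 22 genes for fibronectin, matricellular and microfibril proteins, 12 rose and 1 fell, with a median of 0.98. FN1, fibronectin, was at 162290 and 175381 with SB and 358867 and 364251 with TGFβ (1.1 ± 0.08, adjusted p = 1.61e-06) and took 0.461% and 0.511% of all normalised counts with SB and 0.988% and 1.02% with TGFβ. TGFBI, a secreted adhesion protein, was at 23141 and 21758 with SB and 142753 and 144378 with TGFβ (2.68 ± 0.08, adjusted p = 8.83e-10). THBS1, thrombospondin 1, was at 5543 and 4052 with SB and 58242 and 51318 with TGFβ (3.53 ± 0.12, adjusted p = 2.90e-09). SPARC, an adhesion-modulating glycoprotein, was at 4070 and 3616 with SB and 8226 and 8035 with TGFβ (1.08 ± 0.08, adjusted p = 1.74e-06). FBN1, the microfibril protein fibrillin 1, was at 5619 and 6234 with SB and 13755 and 13916 with TGFβ (1.22 ± 0.08, adjusted p = 5.03e-07). TNC, tenascin C, was the member that fell, and 2 fell without TGFβ library 2. POSTN, periostin, was at 0 and 0 with SB and 0 and 2 with TGFβ and was not tested.

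Collagens rose in 10 of 22 cases and fell in 1, with 0 lower without SB library 2 or TGFβ library 1. COL6A3 was at 58 and 72 with SB and 963 and 1149 with TGFβ (4.0 ± 0.14, adjusted p = 2.90e-09). COL5A1, of a minor fibrillar collagen, was at 30 and 50 with SB and 508 and 605 with TGFβ (3.8 ± 0.20, adjusted p = 8.30e-08). COL7A1, of anchoring fibrils, was at 293 and 370 with SB and 2124 and 3054 with TGFβ (2.95 ± 0.18, adjusted p = 2.67e-07). The major fibrillar collagen COL1A1 was at 196 and 250 with SB and 267 and 337 with TGFβ (adjusted p = 0.0907). COL1A2 was at 0 and 2 with SB and 4 and 5 with TGFβ and COL3A1 at 0 in all 4 libraries. Of 20 crosslinking and hydroxylation genes, 7 rose and 2 fell (1 without TGFβ library 1), led by P4HA3, a prolyl hydroxylase subunit, at 88 and 60 with SB and 360 and 392 with TGFβ (2.35 ± 0.18, adjusted p = 1.75e-06). LOX, lysyl oxidase, was at 13939 and 10091 with SB and 9967 and 8782 with TGFβ (adjusted p = 0.0658). VCAN, the proteoglycan versican, was at 4208 and 4595 with SB and 21439 and 21018 with TGFβ (2.27 ± 0.08, adjusted p = 2.90e-09). Of 13 laminin and basement membrane genes, 5 rose and 1 fell, with 0 lower without SB library 2 or TGFβ library 1. LAMB3, a laminin beta chain, was at 3972 and 3728 with SB and 10631 and 12887 with TGFβ (1.6 ± 0.11, adjusted p = 8.14e-07).

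Matrix proteases and their inhibitors rose in 10 of 23 cases, with 1 fall, a number that was 0 without SB library 2 or TGFβ library 1 and 3 without TGFβ library 2. MMP14, a membrane-type collagenase, was at 24795 and 21290 with SB and 86804 and 98648 with TGFβ (2.01 ± 0.10, adjusted p = 4.48e-08). ADAM19, a membrane metalloprotease, was at 1187 and 1398 with SB and 7901 and 8446 with TGFβ (2.66 ± 0.10, adjusted p = 3.48e-09). TIMP2, an inhibitor that also takes part in pro-MMP2 activation, was at 6440 and 6057 with SB and 16569 and 16944 with TGFβ (1.42 ± 0.08, adjusted p = 8.27e-08). MMP2, at 2 and 7 with SB and 35 and 52 with TGFβ, and MMP9, at 5 and 7 with SB and 43 and 67 with TGFβ, rose from very low counts.

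Plasminogen activation and coagulation genes rose in 11 of 16 cases and fell in 3, with a median of 0.76. PLAU, the urokinase activator, was at 23751 and 19992 with SB and 46750 and 47935 with TGFβ (1.12 ± 0.09, adjusted p = 2.43e-06), and its receptor PLAUR at 1540 and 1078 with SB and 2802 and 3082 with TGFβ (1.19 ± 0.15, adjusted p = 8.50e-05). PLAT, the tissue activator, went the other way, at 16815 and 21583 with SB and 6257 and 6882 with TGFβ (-1.54 ± 0.11, adjusted p = 1.06e-06). TFPI2, a Kunitz-type inhibitor, was at 1017 and 933 with SB and 4686 and 4503 with TGFβ (2.24 ± 0.09, adjusted p = 6.58e-09).

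Integrins, the matrix receptors, rose in 10 of 19 cases and fell in 3, or in 5 without SB library 1. ITGB6, which pairs with ITGAV to activate latent TGFβ, was at 13 and 22 with SB and 693 and 607 with TGFβ (5.18 ± 0.21, adjusted p = 1.00e-08). ITGA5, a subunit of the fibronectin receptor, was at 4799 and 4547 with SB and 27317 and 30528 with TGFβ (2.63 ± 0.09, adjusted p = 2.55e-09). ITGB3 was at 272 and 386 with SB and 1452 and 1360 with TGFβ (2.11 ± 0.14, adjusted p = 6.02e-07). ITGB1, the subunit shared by most matrix integrins, was at 21386 and 18868 with SB and 51900 and 47743 with TGFβ (1.31 ± 0.09, adjusted p = 5.88e-07). ITGB8, which also pairs with ITGAV, was at 481 and 675 with SB and 110 and 95 with TGFβ (-2.47 ± 0.17, adjusted p = 7.15e-07). ITGB4, of hemidesmosomes, was at 1351 and 1506 with SB and 756 and 1107 with TGFβ (-0.64 ± 0.16, adjusted p = 0.010), and its fold change was -0.37 (adjusted p = 0.101) without TGFβ library 1 and -0.56 (adjusted p = 0.073) without SB library 2. Partners of ITGAV thus went in opposite directions, with ITGB6 and ITGB3 higher, ITGB8 lower and ITGB5 at a fold change of 0.03 (adjusted p = 0.832).

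Of 38 genes of the contractile actin cytoskeleton, 23 rose and 2 fell, with a median of 0.37. TNS1, tensin, was at 19 and 13 with SB and 438 and 528 with TGFβ (4.85 ± 0.19, adjusted p = 6.58e-09). PDLIM7, a LIM protein of stress fibers, was at 1848 and 1395 with SB and 4974 and 6723 with TGFβ (1.85 ± 0.17, adjusted p = 5.96e-06). TPM1, a tropomyosin, was at 2670 and 2084 with SB and 5379 and 5029 with TGFβ (1.14 ± 0.11, adjusted p = 1.29e-05). CALD1, caldesmon, was at 1162 and 1198 with SB and 2252 and 2154 with TGFβ (0.90 ± 0.09, adjusted p = 1.54e-05). MYL9, a myosin light chain, was at 237 and 208 with SB and 382 and 464 with TGFβ (0.92 ± 0.19, adjusted p = 0.00316). ACTA2, the smooth muscle actin gene that marks myofibroblasts, was at 56 and 43 with SB and 54 and 45 with TGFβ (adjusted p = 0.989). TAGLN, transgelin, was at 75 and 92 with SB and 63 and 93 with TGFβ (adjusted p = 0.765). CNN1, calponin, was at 3 and 2 with SB and 6 and 5 with TGFβ and was not tested. MYLK, a myosin light chain kinase, was one of the falls, at 6337 and 5661 with SB and 3941 and 4209 with TGFβ (-0.56 ± 0.09, adjusted p = 0.000551). MYLK2, its skeletal muscle relative, was at 44 and 53 with SB and 454 and 486 with TGFβ (3.26 ± 0.14, adjusted p = 1.26e-08). Without the trend in limma, 15 members of this list rose.

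Of 43 genes of actin nucleation and turnover, 14 rose and 2 fell, with 1 lower without either TGFβ library and 9 higher without the trend or with low genes kept. FMNL3, a formin, was at 1045 and 1040 with SB and 3743 and 3901 with TGFβ (1.87 ± 0.08, adjusted p = 1.86e-08). FHOD1, a further formin, was at 2531 and 2755 with SB and 5647 and 6991 with TGFβ (1.25 ± 0.12, adjusted p = 9.85e-06). MSN, moesin, was at 26284 and 23854 with SB and 56268 and 55925 with TGFβ (1.16 ± 0.08, adjusted p = 6.81e-07). These 3 genes rose more than 2-fold. CFL1, the actin-severing protein cofilin, was at 41533 and 33430 with SB and 39658 and 40870 with TGFβ (adjusted p = 0.435). In the gelsolin family, which severs and caps actin filaments, 2 of 6 tested genes rose and 2 fell. GSN, gelsolin, was at 4457 and 5338 with SB and 6709 and 8292 with TGFβ (0.61 ± 0.12, adjusted p = 0.00242). CAPG was at 12596 and 11362 with SB and 16778 and 20288 with TGFβ (0.62 ± 0.11, adjusted p = 0.000954). SCIN, adseverin, was at 3195 and 3983 with SB and 690 and 614 with TGFβ (-2.45 ± 0.13, adjusted p = 8.27e-08). SVIL, supervillin, was at 5205 and 7083 with SB and 3386 and 3642 with TGFβ (-0.79 ± 0.12, adjusted p = 0.000516). GSN did not pass the test when genes with low values were kept.

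**Figure D4:**
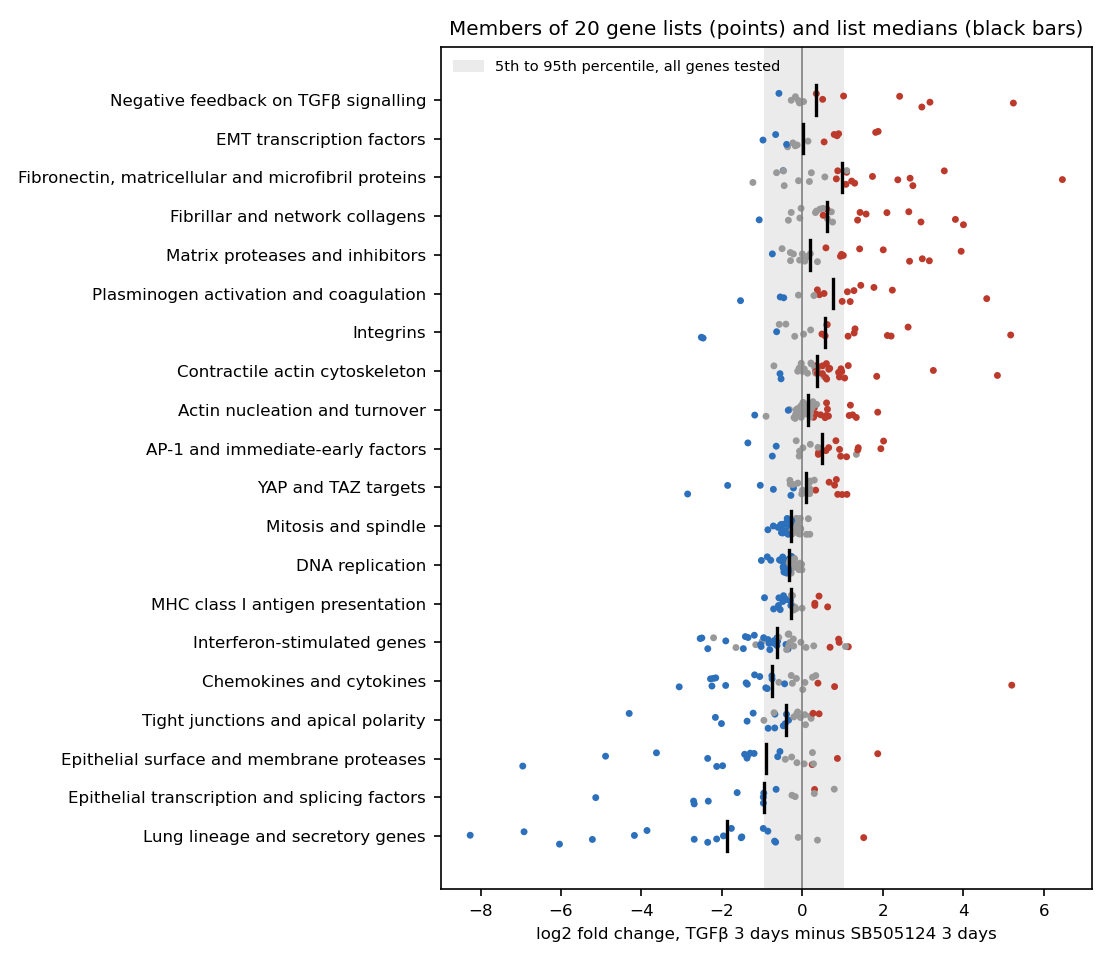
Fold change (horizontal axis, log2, TGFβ minus SB at 3 days) of the tested members of 20 gene lists, red where higher and blue where lower past the threshold and grey otherwise, with black bars at the list medians and the 5th to 95th percentile of all 14395 genes shaded. Matrix, plasminogen and integrin lists reach far to the right, epithelial and lung lineage lists far to the left, and the cell-cycle lists lie close together just below 0.

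Signalling genes moved in both directions. Of 24 YAP and TAZ targets, 7 rose and 6 fell, with a median of 0.09. CYR61, a matricellular protein, was at 11080 and 5910 with SB and 15074 and 14686 with TGFβ (0.88 ± 0.21, adjusted p = 0.00745). CTGF, its relative, was at 3032 and 1724 with SB and 4608 and 3657 with TGFβ (0.84 ± 0.21, adjusted p = 0.0098), with 1.25 without SB library 1 and 0.44 without SB library 2, where it did not pass the test (adjusted p = 0.065), nor did it without TGFβ library 1 (adjusted p = 0.0563). IGFBP3 was at 2271 and 3236 with SB and 358 and 392 with TGFβ (-2.85 ± 0.15, adjusted p = 7.64e-08). ANKRD1 was at 258 and 108 with SB and 173 and 138 with TGFβ (adjusted p = 0.864). CYR61 rose by 1.33 without SB library 1 and by 0.43 without SB library 2. Without the trend in limma or with low genes kept, CYR61 and CTGF did not pass the test and 3 members of the list rose. Of 22 AP-1 and immediate-early factors, 12 rose and 3 fell, with a median of 0.49, and 7 rose without the trend. JUNB was at 222 and 284 with SB and 862 and 1208 with TGFβ (2.02 ± 0.21, adjusted p = 2.51e-05). JUN was at 4439 and 4653 with SB and 2744 and 3056 with TGFβ (-0.65 ± 0.10, adjusted p = 0.000635). JUNB and JUN thus went in opposite directions. FOS was at 194 and 122 with SB and 362 and 423 with TGFβ (adjusted p = 0.127). Feedback genes of the MAPK pathway gave 3 rises and 5 falls among 18 (16.7% and 27.8%), so that the share of rises was near that of all genes, with SPRY1, a sprouty inhibitor, at 1467 and 1306 with SB and 374 and 347 with TGFβ (-1.94 ± 0.12, adjusted p = 3.11e-07). DUSP6, an ERK phosphatase, was at 11683 and 11449 with SB and 6104 and 6289 with TGFβ (-0.90 ± 0.08, adjusted p = 3.96e-06).

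Growth factors and their receptors rose in 12 and fell in 12 of 43 cases, and the directions differed by family. Of the PDGF ligand genes, 3 rose and PDGFD did not pass the test, with PDGFA at 302 and 211 with SB and 1209 and 1235 with TGFβ (2.27 ± 0.16, adjusted p = 8.03e-07). PDGFC was at 828 and 744 with SB and 2119 and 1892 with TGFβ (1.35 ± 0.11, adjusted p = 1.95e-06). EGF-family ligands that passed the test fell, with EREG, epiregulin, at 15859 and 23088 with SB and 7468 and 6921 with TGFβ (-1.41 ± 0.14, adjusted p = 1.27e-05). AREG, amphiregulin, was at 26 and 50 with SB and 4 and 6 with TGFβ (-2.65 ± 0.53, adjusted p = 0.00284). TGFA was at 2440 and 2921 with SB and 1871 and 1732 with TGFβ (-0.57 ± 0.11, adjusted p = 0.00208). Among binding proteins and receptors, IGFBP2 was at 1402 and 1544 with SB and 492 and 615 with TGFβ (-1.42 ± 0.16, adjusted p = 4.13e-05). FGFBP1, which carries FGFs, was at 745 and 1068 with SB and 119 and 113 with TGFβ (-2.93 ± 0.20, adjusted p = 5.88e-07). NRP2, a coreceptor, was at 4177 and 6453 with SB and 14034 and 14262 with TGFβ (1.45 ± 0.15, adjusted p = 2.03e-05). WNT genes gave 8 rises and 3 falls among 20, led by WNT5B, a WNT ligand, at 0 and 0 with SB and 23 and 22 with TGFβ, so that its SB libraries were at 0, and TCF7, a factor of the WNT response, at 145 and 128 with SB and 521 and 578 with TGFβ (2.0 ± 0.13, adjusted p = 3.11e-07). AXIN2, a common WNT target, was at 8 and 18 with SB and 16 and 10 with TGFβ (adjusted p = 0.923). Notch pathway genes gave 7 rises and 2 falls among 19, with JAG1, a ligand, at 3447 and 3546 with SB and 5856 and 5574 with TGFβ (0.71 ± 0.08, adjusted p = 5.36e-05). JAG2 was at 298 and 385 with SB and 138 and 157 with TGFβ (-1.2 ± 0.21, adjusted p = 0.0012), while the Notch target HES1 was at 732 and 884 with SB and 964 and 954 with TGFβ (adjusted p = 0.122). Without SB library 1, 5 Notch genes fell, without SB library 2 or TGFβ library 1, 1 did, and without TGFβ library 2, 4 rose.

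Cell-cycle genes were lower by small amounts. Of 46 DNA replication genes, 24 fell and none rose, with a median of -0.33, and of 50 mitosis genes, 27 fell and none rose, with a median of -0.27. TK1, thymidine kinase, was at 3599 and 3533 with SB and 1838 and 2324 with TGFβ (-0.79 ± 0.13, adjusted p = 0.000853). MCM2, of the replicative helicase, was at 8126 and 8518 with SB and 5409 and 6089 with TGFβ (-0.54 ± 0.10, adjusted p = 0.00138). UBE2C, of the anaphase-promoting pathway, was at 18277 and 14679 with SB and 9082 and 9004 with TGFβ (-0.86 ± 0.10, adjusted p = 6.27e-05). TOP2A, the mitotic topoisomerase, was at 34364 and 34661 with SB and 25645 and 23744 with TGFβ (-0.48 ± 0.08, adjusted p = 0.00112). MKI67, the proliferation marker Ki67, was at 23254 and 29137 with SB and 24613 and 24779 with TGFβ (-0.08 ± 0.10, adjusted p = 0.615). CDK1 was at 9075 and 8350 with SB and 7615 and 6963 with TGFβ (-0.26 ± 0.09, adjusted p = 0.053). MKI67 and CDK1 did not pass the test. The number of lower mitosis genes was 15 without SB library 1 and 13 without TGFβ library 2, 11 without the trend in limma and 14 with low genes kept. That of lower DNA replication genes was 15 without the trend and 33 with equal library totals.

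The CDK inhibitor genes CDKN1A and CDKN2B rose, and CDKN1B and CDKN2C fell. CDKN1A, which encodes p21, was at 1253 and 1184 with SB and 3125 and 3365 with TGFβ (1.41 ± 0.09, adjusted p = 4.68e-07). CDKN2B, which encodes p15, was at 325 and 295 with SB and 825 and 841 with TGFβ (1.42 ± 0.11, adjusted p = 1.91e-06). The values of these genes with TGFβ were over 2-fold those with SB in every library pair. CDKN1B, of the p27 inhibitor, was lower, at 1521 and 1641 with SB and 1195 and 1232 with TGFβ (-0.38 ± 0.10, adjusted p = 0.0112), but did not pass the test without TGFβ library 1 (adjusted p = 0.0806). Of the 29 CDK inhibitor and G1 genes, 9 fell, with 5 lower without SB library 1 and 4 without TGFβ library 1. CCND1, cyclin D1, was at 22730 and 20496 with SB and 33577 and 33498 with TGFβ (0.64 ± 0.08, adjusted p = 0.00010). E2F2, an activating E2F factor, was at 437 and 558 with SB and 191 and 175 with TGFβ (-1.43 ± 0.17, adjusted p = 5.95e-05). E2F7, a repressive E2F factor, was at 6151 and 4634 with SB and 12633 and 11956 with TGFβ (1.2 ± 0.11, adjusted p = 1.02e-05). MYC was at 16285 and 13846 with SB and 14016 and 14898 with TGFβ (-0.06 ± 0.09, adjusted p = 0.691), and of 13 genes of its network 1 rose and 1 fell, with 0 lower without SB library 1 or TGFβ library 1. Of 40 ribosome biogenesis genes, 8 fell, a count that was 0 without TGFβ library 1, 3 without SB library 1 or TGFβ library 2 and 15 with equal library totals.

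**Figure D5:**
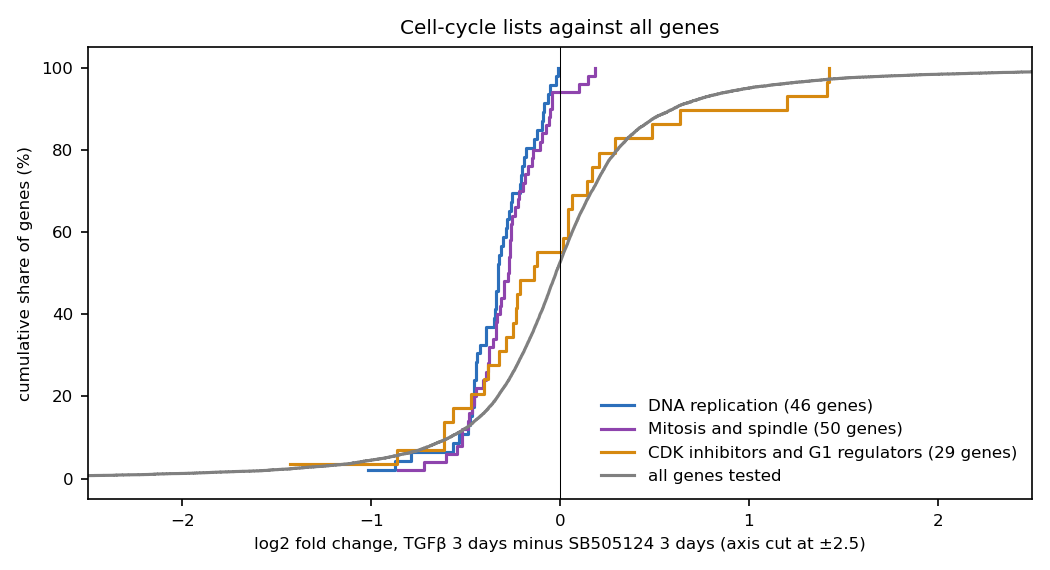
Cumulative share of genes (vertical axis, %) by fold change (horizontal axis, log2, TGFβ minus SB at 3 days, shown from -2.5 to 2.5) for 46 DNA replication genes, 50 mitosis genes, 29 CDK inhibitor and G1 genes and all 14395 genes tested. The replication and mitosis curves rise steeply just left of 0, whereas the G1 list has members with large changes in either direction.

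Of 24 glycolysis genes, 4 rose and 5 fell, with 2 lower without TGFβ library 1, 2 higher without TGFβ library 2 and 8 lower with equal library totals. Among them was ENO2, an enolase, at 1763 and 2370 with SB and 906 and 990 with TGFβ (-1.11 ± 0.13, adjusted p = 5.67e-05). PFKFB4, a regulator of glycolytic flux, was at 478 and 665 with SB and 1267 and 1577 with TGFβ (1.32 ± 0.15, adjusted p = 4.27e-05). Of 32 sterol and fatty acid genes, 9 rose and 1 fell, with 5 higher without TGFβ library 1 and 4 lower without SB library 1. Among them was ACLY, which makes cytosolic acetyl-CoA, at 13666 and 14010 with SB and 23866 and 25568 with TGFβ (0.84 ± 0.08, adjusted p = 9.07e-06). STARD4, a sterol carrier, was at 1192 and 1265 with SB and 2522 and 2281 with TGFβ (0.97 ± 0.10, adjusted p = 2.03e-05). Of 32 ATF4 and ER stress genes, 11 rose and 1 fell, with 7 and 6 higher without TGFβ libraries 1 and 2, and 0 lower without SB library 2 or TGFβ library 2. Among them was HSPA5, the ER chaperone BiP, at 46438 and 41837 with SB and 67194 and 60454 with TGFβ (0.53 ± 0.09, adjusted p = 0.000783). CREB3L1, a secretory-pathway factor, was at 409 and 406 with SB and 788 and 864 with TGFβ (1.02 ± 0.11, adjusted p = 2.97e-05). DDIT3, of the terminal stress response, was at 2374 and 1944 with SB and 2151 and 2014 with TGFβ (adjusted p = 0.80). HMOX1, heme oxygenase, was at 737 and 520 with SB and 1961 and 2243 with TGFβ (1.76 ± 0.15, adjusted p = 4.79e-06). Of 14 heat shock and stress genes, 2 rose (14.3%, the share over all genes being 14.9%) and 4 fell, of which 1 was left without TGFβ library 1. Of 13 metallothionein and zinc transporter genes, 3 rose and 3 fell, or 23.1% each. MT1X was at 1241 and 964 with SB and 515 and 624 with TGFβ (-0.95 ± 0.15, adjusted p = 0.000627). MT2A was at 8744 and 6879 with SB and 9380 and 12319 with TGFβ (0.47 ± 0.14, adjusted p = 0.0263), with a fold change of 0.3 without SB library 2 and 0.27 without TGFβ library 2, where it did not pass the test (adjusted p = 0.194 in either case).

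Of 21 genes of MHC class I antigen presentation, 10 fell and 4 rose, with a median of -0.28. B2M, the light chain of class I molecules, was at 61251 and 73393 with SB and 54023 and 49531 with TGFβ (-0.37 ± 0.10, adjusted p = 0.0135), with a fold change of -0.5 without SB library 1. B2M did not pass the test without SB library 2 (-0.24, adjusted p = 0.065) or TGFβ library 2 (-0.31, adjusted p = 0.0939), with low genes kept (adjusted p = 0.0828) or without the trend (adjusted p = 0.0911). TAP1, a peptide transporter, was at 1203 and 1582 with SB and 804 and 878 with TGFβ (-0.71 ± 0.13, adjusted p = 0.0018). The risers were ERAP1, ERAP2, CALR and PDIA3, which act in peptide trimming and folding in the ER; ERAP2 was at 11797 and 11836 with SB and 18871 and 17680 with TGFβ (0.63 ± 0.08, adjusted p = 0.000122). CALR was not past the threshold without either TGFβ library, nor ERAP1 without SB library 1 or TGFβ library 1, and 2 members rose without TGFβ library 1. Lower calls numbered 13 without SB library 1, 5 without SB library 2, 5 without TGFβ library 1 and 6 without TGFβ library 2.

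Interferon-stimulated genes had a median of -0.63, with 23 of 43 lower and 4 higher. IFITM1, a membrane restriction factor, was at 544 and 1085 with SB and 141 and 159 with TGFβ (-2.35 ± 0.25, adjusted p = 2.35e-05). GBP2, a guanylate-binding protein, was at 835 and 1360 with SB and 441 and 395 with TGFβ (-1.35 ± 0.19, adjusted p = 0.000188). PARP14 was at 4045 and 6413 with SB and 2296 and 2155 with TGFβ (-1.19 ± 0.16, adjusted p = 0.000174). In the other direction, IFI44 was at 2178 and 2270 with SB and 5080 and 4743 with TGFβ (1.14 ± 0.09, adjusted p = 1.75e-06). SAMD9 was at 1223 and 1481 with SB and 2688 and 2348 with TGFβ (0.90 ± 0.11, adjusted p = 0.000107). Several members lay within the set in which the SB pair differed. MX1, an antiviral GTPase, was at 537 and 1799 with SB and 255 and 269 with TGFβ, with a fold change of -2.78 without SB library 1 and -1.03 without SB library 2, and OAS1, an oligoadenylate synthetase, at 60 and 292 with SB and 23 and 21 with TGFβ, with -3.67 and -1.41. XAF1, an apoptosis-related member, passed the test at -4.15 without SB library 1 but not at -0.85 without SB library 2 (adjusted p = 0.392). XAF1 did not pass it without TGFβ library 2 either (-1.55, adjusted p = 0.205). MX1 and OAS1 did not pass the test without the trend or with low genes kept. The list had 30 lower members without SB library 1 and 17 without SB library 2. With genes of low values kept it had 9, and without the trend in limma 10. Of 14 genes of cytosolic DNA and RNA sensing, 4 fell (7 with equal library totals), among them TMEM173, which encodes STING, at 4853 and 5261 with SB and 2746 and 3143 with TGFβ (-0.78 ± 0.10, adjusted p = 8.80e-05). MB21D1, which encodes cGAS, was at 771 and 732 with SB and 637 and 587 with TGFβ (adjusted p = 0.0765).

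Chemokine and cytokine genes fell in 15 of 26 cases and rose in 3, with a median of -0.76. CX3CL1, a membrane-bound chemokine, was at 1026 and 1689 with SB and 149 and 165 with TGFβ (-3.06 ± 0.20, adjusted p = 4.57e-07). CXCL8, a neutrophil chemokine, was at 1974 and 4438 with SB and 728 and 532 with TGFβ (-2.25 ± 0.28, adjusted p = 9.17e-05). CSF2, the GM-CSF gene, was at 231 and 468 with SB and 81 and 55 with TGFβ (-2.28 ± 0.31, adjusted p = 0.000166), with -2.79 and -1.78 without SB libraries 1 and 2. The SB libraries differed over 2-fold for CXCL8 and CSF2, with library 1 lower, and the fold change of CXCL8 was -2.83 and -1.66 without SB libraries 1 and 2. IL6R, the interleukin 6 receptor, was at 2979 and 2690 with SB and 1127 and 1022 with TGFβ (-1.4 ± 0.11, adjusted p = 1.75e-06). IL11, IL6 and OSMR were the genes that rose, IL6 at 154 and 123 with SB and 243 and 238 with TGFβ (0.80 ± 0.17, adjusted p = 0.00467), and the rise of OSMR was lost without SB library 1 (0.16, adjusted p = 0.17) and without either TGFβ library. Complement genes fell in 6 of 16 cases and rose in 2. CFB, of the alternative pathway, was at 208 and 1329 with SB and 121 and 125 with TGFβ, with a fold change of -3.42 without SB library 1 and -0.75 without SB library 2 and not past the threshold without the trend or with low genes kept, and CD59, which blocks the lytic complex, at 17679 and 15303 with SB and 34626 and 31958 with TGFβ (1.02 ± 0.09, adjusted p = 5.34e-06).

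Ligands of NK cells and checkpoint receptors gave 5 rises and 7 falls among 27 genes (18.5% and 25.9%), with a median of 0.02, and 3 rose without TGFβ library 1. The share of rises was near that of all genes. TNFRSF10D, a TRAIL decoy receptor, was at 939 and 825 with SB and 2776 and 2568 with TGFβ (1.6 ± 0.10, adjusted p = 2.63e-07). PDCD1LG2, which encodes PD-L2, was at 91 and 80 with SB and 227 and 221 with TGFβ (1.38 ± 0.18, adjusted p = 0.000139). ULBP2, a ligand of NKG2D, was at 383 and 355 with SB and 586 and 682 with TGFβ (0.78 ± 0.12, adjusted p = 0.000588). CD274, which encodes PD-L1, was at 2246 and 1962 with SB and 1444 and 1343 with TGFβ (-0.59 ± 0.12, adjusted p = 0.00232). ICAM1, an adhesion ligand of lymphocytes, was at 1545 and 3000 with SB and 1050 and 1049 with TGFβ, with a fold change of -1.51 without SB library 1 and -0.56 without SB library 2. ICAM1 did not pass the test without the trend (adjusted p = 0.0678) or with low genes kept (adjusted p = 0.0816). The NKG2D ligands MICA and MICB were at fold changes of 0.31 and 0.15 (adjusted p = 0.0699 and 0.294).

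A few genes were near 0 in a whole group. By the criterion of at most 3 normalised counts in each library of a group and at least 30 in each library of the other, 15 genes were present with TGFβ alone and 5 with SB alone. The former included FOXS1, MYO7B, DOCK2, CGB8, LIMS2, RUNX3, GPR111, LOC100132891, PVRL4, KCNA7, ADAM33, LOC102724050 and ECSCR. RUNX3, a RUNX factor linked to TGFβ responses, was at 1 and 2 with SB and 49 and 52 with TGFβ. MYO7B, an unconventional myosin, was at 0 and 0 with SB and 71 and 113 with TGFβ, at least 30.7-fold higher in the TGFβ mean than a floor of 3 counts per library. The 5 genes of the other direction were SFTPA2, KRT16P3, CEACAM5, NCMAP and KCNK10. CEACAM5 was at 59 and 254 with SB and 0 and 0 with TGFβ. On the same floor it was at least 19.7-fold lower from the lower SB library and 52.2-fold lower from the SB mean. Its fold change was -7.99 without SB library 1 and -5.91 without SB library 2. CGB8, KRT16P3 and SFTPA2 have near-identical copies and are uncertain. With at most 5 and at least 20 counts, the numbers were 36 and 23.

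Values at 7 days rest on the same SB libraries and are not matched for time in culture, so they are given side by side without a comparison. SPOCK1 stood at a fold change over SB of 6.46 at 3 days and 8.0 at 7 days, FN1 at 1.1 and 1.71, GSN at 0.61 and 1.68, CDH1 at -4.18 and -5.54 and NKX2-1 at -1.96 and -1.73. MKI67 was at -0.08 and -0.54.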

How the data were processed

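RNA-seq was made from H2087-LCC cells in 6 libraries, 2 per group. Per the labels and the study's methods, the authors checked reads with FastQC 0.11.5, aligned 50-base reads to hg19 with STAR and counted them per gene with HTSeq 0.6.1p1. The values the authors deposited are library-size normalised counts rounded to whole numbers, and are treated here as a normalised score. They could not be turned back into raw counts, so the negative binomial test of the study was not run. Depth before normalisation is not known, and the sums given are of normalised counts.

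Values were transformed as log2(normalised count + 1), and genes with a mean under 10 over the 6 libraries were left out. limma 3.58.1 in R 4.3.3 was fitted to all 6 libraries with a mean-variance trend, which leaves 3 residual degrees of freedom, and p-values were adjusted by Benjamini-Hochberg over 14395 genes with a threshold of 0.05. Errors are standard errors of the log2 fold change. Of 21293 symbols, 1316 genes were at 0 in every library, 27 read as spreadsheet dates, and 18435 matched current symbols of the annotation on GRCh37. Figures were drawn with Python 3.11.15 and matplotlib 3.10.9.

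The comparison, the gene lists and their members were chosen with earlier results of these data known. The rule for named genes took up to 6 members per list with the largest fold change past the threshold, the 15 largest rises and falls with a mean of at least 100, and genes near 0 in one group. This named 304 genes. A further 73, including FN1, PLAU, MYL9, KRT8 and other members that ranked lower or did not pass, were chosen after their values were seen. Genes too low to be tested are given by their counts. Some members of the lists are not reported here. Alternatives were another pseudocount, filter and scaling, limma without the trend or on 4 libraries, a replicate block, and each library left out.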

Additional observations from a re-analysis of the deposited data

Results flagged for a closer look

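Among the 377 named genes, 9 were above SB after one length of TGFβ exposure and below it after the other. Limma's adjusted p (Benjamini-Hochberg) was under 0.05 for either difference from SB and for the difference between the times. The number of such genes over all 14395 genes tested was not taken, so the 9 cannot be set beside a share over all genes. Both differences from SB use the same SB libraries, and an SB library of 7 days was not analysed here, so time in culture and TGFβ exposure cannot be told apart at 7 days. The differences below are 7 days minus 3 days on the log2 scale.

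Of the 5 genes that rose at 3 days and were below SB at 7 days, CYR61, CTGF and F3 are members of the YAP and TAZ list. CYR61 was at 11080 and 5910 with SB, 15074 and 14686 at 3 days and 1408 and 1262 at 7 days, a difference of -3.48. CTGF was at 3032 and 1724 with SB, 4608 and 3657 at 3 days and 881 and 751 at 7 days, a difference of -2.334. F3, tissue factor, was at 2289 and 1420 with SB, 3992 and 3210 at 3 days and 782 and 720 at 7 days, a difference of -2.253. In these 3 genes SB library 1 was the higher of its pair. The 3-day call of CTGF was lost without SB library 2 (0.44, adjusted p = 0.065) and without TGFβ library 1 (0.68, adjusted p = 0.0563), and the 3-day rise of CYR61 was 0.43 without SB library 2. DKK3, a secreted protein of the WNT list, had a matched SB pair at 142 and 139 and was at 402 and 334 at 3 days and 39 and 36 at 7 days, a difference of -3.256. KLF4 was at 2501 and 2323 with SB, 2946 and 3003 at 3 days and 2046 and 1896 at 7 days, a difference of -0.5945, and its 3-day call was lost with SB library 2 or either TGFβ library left out (adjusted p = 0.0936 to 0.12).

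The other 4 genes moved the opposite way, lower than SB early and higher than SB late. CFI, a complement inhibitor, was at 654 and 1808 with SB, 474 and 511 at 3 days and 2207 and 2448 at 7 days, a difference of 2.237, and its 3-day fold change was -1.88 without SB library 1 and -0.41 without SB library 2. SOX9 was at 1835 and 2305 with SB, 1233 and 1365 at 3 days and 2591 and 2769 at 7 days, a difference of 1.045. VLDLR, a lipoprotein receptor, differed by 1.022 between the times, from 205 and 173 to 366 and 402, with 255 and 283 with SB, and its 3-day call was lost without SB library 2 (adjusted p = 0.0961) and without TGFβ library 2 (adjusted p = 0.175). B2M differed by 0.7664, from 54023 and 49531 to 85149 and 90935, with 61251 and 73393 with SB, and its 3-day call was lost without SB library 2 (adjusted p = 0.065) and without TGFβ library 2 (adjusted p = 0.0939). With low genes kept, the 3-day calls of B2M, CFI, CTGF, CYR61, F3 and VLDLR were lost. B2M, SOX9, CTGF and KLF4 were among the genes named after their values were seen.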

How the results depend on the processing

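The numbers of genes past the threshold depended on the settings. With each library left out in turn, genes that were higher numbered 1443 to 2041 and lower genes 1166 to 1836, against 2149 and 2021; the lowest number of lower genes came without TGFβ library 1. At least 2-fold higher genes numbered 600 to 722 and at least 2-fold lower genes 460 to 715. With genes of low values kept, 19977 genes were tested and 1249 were lower, and the other alternatives stayed within 1.5 times of each count. Scaling to equal library totals gave 1819 higher and 2552 lower genes. The replicate numbers gave no common pairing of the libraries. Deviations of same-numbered libraries correlated at 0.208 between SB and 3-day TGFβ, -0.13 between SB and 7-day TGFβ and -0.647 between the TGFβ times. By the last value, library 1 of one TGFβ time deviated like library 2 of the other, so these libraries may not be independent in the fit. The source of this was not tested. A fit with the replicate number as a block gave 2024 higher and 1919 lower genes, but this block does not follow the swapped order. Of the 377 named genes, 348 passed the test and 276 of these did so under every setting they could be tested in. No named gene that passed the test changed direction. Lost calls numbered 53 with low genes kept, 49 without the trend, and between 17 and 39 with a library left out. Genes that did not pass the test and whose direction turned had left-out-library fold changes as follows: ACTA2 between -0.1804 and 0.193, ANKRD1 between -0.7359 and 0.5128, AXIN2 between -0.4745 and 0.6035, BAMBI between -0.4093 and 0.06254, CD68 between -0.1819 and 0.02194, CFL1 between -0.04493 and 0.2682, DDIT3 between -0.1897 and 0.09846, GATA6 between -0.243 and 0.03439, IFI27 between -3.348 and 0.04613, ITGB5 between -0.04055 and 0.09996, KRT8 between -0.1416 and 0.09074, MKI67 between -0.2386 and 0.08679, MYC between -0.1724 and 0.06162, QKI between -0.05618 and 0.02789, SMAD4 between -0.01435 and 0.1001, TAGLN between -0.3935 and 0.161. With equal library totals ACTA2 was at -0.04829, ITGB5 at -0.02602 and SMAD4 at -0.01281. The cause of these shifts was not tested. With 2 libraries a group, effects near the spread of the SB pair could not be resolved.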
